A study of Mus musculus with 4 samples.

Results

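The step from the late 2-cell (L2C) to the 4-cell stage of the mouse preimplantation embryo was described here from full-length cDNA of single blastomeres. The members were all columns of the gene and isoform tables whose names mark an L2C or a 4-cell cell, grouped into embryos by the first number in the cell name. This gave 11 embryos of the 43 oocytes, zygotes and embryos with a named origin, and 28 of the 161 cells. The L2C group held 6 embryos (11 cells) collected 46 to 48 hours after hCG, and the 4-cell group held 5 embryos (17 cells) collected 54 to 56 hours after hCG. All were untreated embryos of a DBA/2J x C57BL/6J cross without any genetic change, and the study's methods name superovulated C57BL/6J females and DBA/2NCrl males. The cDNA was read on the PacBio platform by HIT-scISOseq, a method that joins several barcoded cDNAs into 1 long molecule. Each long read is then split into its cDNAs, each with its cell barcode and its UMI (unique molecular identifier). A cDNA can be shorter than its transcript.

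The mouse genome is switched on in a large wave during the 2-cell stage. A short burst of genes driven by the factor DUX, among them the Zscan4 family and transcripts that start in MERVL repeats, appears at that stage, while mRNA stored by the oocyte is degraded. The embryo then turns to housekeeping transcription, and genes for ribosomes, mitochondria and biosynthesis are known to gain mRNA on the way to the 8-cell embryo, where compaction and the first lineage choice follow.

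Values are copies per 100,000 UMIs of a cell, averaged over the cells of an embryo, so that they are shares of the mRNA read and not amounts per blastomere. A blastomere held 17971 to 67963 gene UMIs at L2C (median 58097) and 4985 to 43842 at 4-cell (median 32466), so that a 4-cell transcript seen once was worth several copies. The labels give no sequencing run for these cells, so that run and stage cannot be told apart, and if numbering began anew in each run, a replicate could hold cells of different embryos. Some embryos stood apart. L2C embryo 1 was a single cell with 17971 UMIs, and 4-cell embryo 2 was 2 cells with a mean of 12706 UMIs. At 4-cell, embryos 4 and 5 had the most UMIs per cell at that stage (41488 and 40135). The limma fit gave 4-cell embryos 4 and 5 gene weights of 0.954 and 1.02, against 0.187 to 0.528 for the other 4-cell embryos, so counts over the gene lists are also given without that pair. Such a count is of the members called in the fit without it, which need not be the same genes. That fit called fewer genes of any kind, 98 higher and 181 lower of 11507 tested, against 282 and 500 of 11682 with all embryos. Few or no calls in a list without the pair thus do not by themselves place a change in the pair alone.

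The labelled stages were set against marker genes. The 12 listed markers of the late 2-cell programme found in the table summed to 22.3 to 86.2 copies at L2C (median 36.3). At 4-cell they summed to 32.1 to 55.5 (median 39.9), so that the sum did not separate the stages. Sp110, a large part of it, was at 19.2 copies at L2C, 22.2 at 4-cell and 15.1 at the 8-cell stage. Tcstv1, Tdpoz4 (3.10 and 7.60 copies) and Sp110 had higher means at 4-cell than at L2C. Zscan4c, Zscan4d, Zscan4f, Tcstv3 (4.41 and 0.476 copies), Zfp352, Usp17lb and Usp17lc had lower ones. Zscan4c was at 1.54 copies at L2C and 1.19 at 4-cell, below its 4.33 at E2C (early 2-cell), and Duxf3 was at 0 in both stages and at 4.71 at E2C. Both were thus lower at L2C than at E2C, as were Zscan4d, Tcstv1 (29.7 copies at E2C and 1.26 at L2C), Tcstv3, Zfp352, Usp17la and Usp17lc. Usp17lb, Tdpoz4 and Sp110 were higher at L2C than at E2C, and Zscan4f was level at 1.59 copies. Most markers listed for the late 2-cell programme thus had their higher mean at E2C, before the step described here. Of the 5 cumulus cell markers in the table, 3 were at 0 in both stages and the other two summed to at most 0.875 copies at L2C and 1.52 at 4-cell. The 6 markers of 8-cell and later embryos summed to at most 2.00 copies at L2C and 5.17 at 4-cell. The 8 oocyte markers summed to 51.1 to 205 copies at L2C (median 113) and 49.7 to 353 at 4-cell (median 210). Of these, Gdf9, Oosp1, H1foo (32.8 and 91.5 copies) and Mos had higher means at 4-cell than at L2C. Zp1, Zp2, Zp3 (25.0 and 9.70 copies) and Bmp15 had lower ones.

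More genes were called lower than higher from L2C to 4-cell, a balance that turned round when cells were thinned to equal depth or a pseudocount of 5 was used. Calls needed an unadjusted limma p under 0.01 and a change of more than 1 on the log2 scale in either direction. Of 11682 genes tested, 282 were called higher at 4-cell (2.41%) and 500 were called lower (4.28%), 6.69% in all. Of these, 139 higher and 220 lower genes also had an adjusted p under 0.05 (3.07%), and 82 higher and 127 lower genes were called in all 11 fits that left out 1 embryo. The median log2 fold change over all genes was -0.06. Without 4-cell embryos 4 and 5, 98 genes were called higher and 181 lower, and of the genes called with all embryos 55 of 282 and 112 of 500 were called again. Of the 273 risen genes that could still be tested, 268 kept their direction. With cells thinned to 10000 UMIs, which leaves out the 1 4-cell cell under that depth (4985 UMIs, of embryo 2), the split turned to 245 higher and 107 lower genes.

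The genes called were then followed at stages other than the 2 compared. The embryos of those stages were in the same fit and shared its residual variance. Genes of low variance are thus favoured in both sets of calls, which are not independent. From E2C to the 8-cell stage, 166 of the 282 genes that rose at the 4-cell stage were called higher (58.9%) and 21 were called lower. Over all genes tested, 22.6% were called higher from E2C to 8-cell and 30.7% lower. Of the 500 genes that fell at the 4-cell stage, 288 were called lower from E2C to 8-cell (57.6%) and 23 higher. The genes that fell were also the more abundant in oocytes, where 307 (61.4%) reached 1 copy, against 101 (35.8%) of those that rose and 51.1% of all genes tested. Their median level was 3.08 copies in the oocyte, 5.36 at E2C, 6.17 at L2C, 1.78 at 4-cell and 0.818 at the 8-cell stage. The median of the genes that rose was 0.411 copies in the oocyte, 0.686 at E2C, 2.39 at L2C, 7.76 at 4-cell and 5.93 at the 8-cell stage. The L2C and 4-cell medians were set by the choice of the genes, and those of the other stages were not set directly by it. All 500 genes that fell had a mean of at least 1 copy at L2C, against 67.9% of all genes tested. The shares over all genes are therefore not matched for level.

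The genes described next were the largest changes among genes with an adjusted p under 0.05, at least 10 copies in the higher stage and no overlap between the embryos of the stages. Over all genes, 56 (0.479%) had every 4-cell embryo above every L2C embryo and 85 (0.728%) the reverse, and 87 called genes had no overlap. The conditions left 14 genes that rose and 15 that fell, of which the 12 largest in each direction were taken. Their separation of stages was a condition of the choice and is given as a description.

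**Figure D1:**
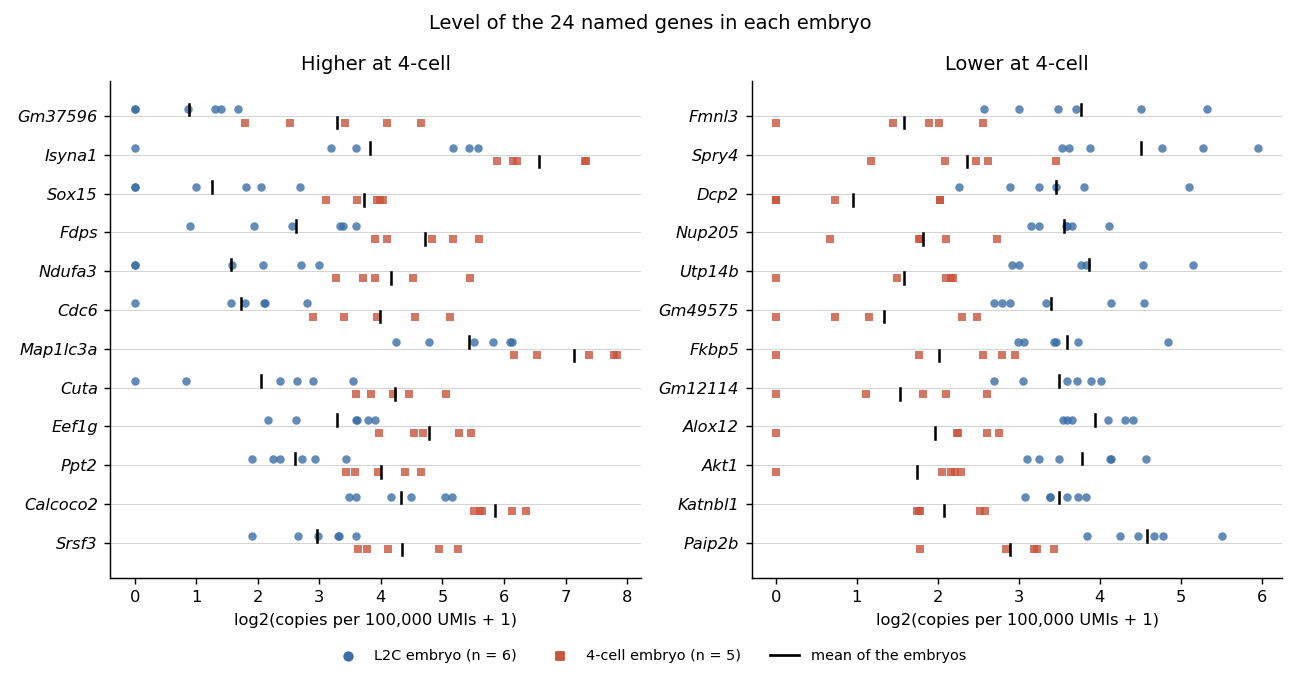
Level of the 12 genes with the largest rise and the 12 with the largest fall in each L2C and 4-cell embryo, in copies per 100,000 UMIs on a log scale after adding 1. Each point is 1 embryo, the bar marks the mean, and by the rule of choice no 4-cell point lies among the L2C points of the same gene, as for Sox15 with at most 5.45 copies at L2C and at least 7.59 at 4-cell.

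Among the genes that rose, Sox15 encodes an SRY-related transcription factor close to SOX2 (chr11:69655314-69656727, plus strand, mm10). It was at 0 to 5.45 copies over the 6 L2C embryos (median 1.74) and at 11.2, 14.9, 7.59, 14.3 and 15.3 copies in 4-cell embryos 1 to 5. Its log2 fold change was 2.24 ± 0.46 (SE, limma adjusted p = 0.00304). The level was 0.943 copies at E2C and 14.5 at the 8-cell stage. Gm37596, a predicted protein-coding gene on chr3, rose by 2.78 ± 0.44 on the log2 scale, from at most 2.21 copies at L2C to 9.70, 2.45, 4.73, 16.1 and 24.1 copies, and fell back to 1.56 at the 8-cell stage.

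Isyna1 and Fdps encode metabolic enzymes. Isyna1 makes inositol phosphate from glucose phosphate, the first step of inositol synthesis. It stood at 0 to 46.7 copies at L2C (median 23.0) and at 72.8, 69.5, 58.1, 158 and 159 at 4-cell, and its mean at the 8-cell stage was 284. Fdps makes farnesyl diphosphate for sterols and prenylated proteins, and went from 0.875 to 11.1 copies (median 6.96) to 16.0, 47.5, 14, 27.4 and 35.2. Fdps rose by 2.21 ± 0.45 (adjusted p = 0.00298), and by 1.75 without 4-cell embryos 4 and 5. Isyna1 rose by 2.39 ± 0.49 (adjusted p = 0.00321), but by 1.61 (unadjusted p = 0.0176) without those embryos, which is short of the limit. The reads of Fdps overlap a predicted gene on the same strand, Gm43738, and part of them may belong to it.

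Ndufa3, a subunit of respiratory complex I, was at 0 to 6.98 copies at L2C (median 2.61) and at 12.1, 42.6, 13.9, 22.0 and 8.65 at 4-cell, a log2 fold change of 2.12 ± 0.48 (adjusted p = 0.00686). Cdc6 loads the MCM helicase at replication origins and went from at most 5.97 copies to 9.62, 22.5, 6.45, 33.8 and 14.3. Eef1g, a subunit of the elongation factor eEF1, went from 3.51 to 14 copies (median 11.2) to 22.2, 24.7, 14.8, 43.3 and 37.7. For Ndufa3 and Cdc6 the L2C embryos included some at 0, whereas Eef1g was read in every embryo. Srsf3, a splicing factor of the SR family, was at 2.75 to 11.1 copies at L2C (median 7.86) and at 16.4, 29.9, 11.3, 37.3 and 12.6 at 4-cell. Unlike the others, Srsf3 was already at 29.6 copies at E2C, and it reached 66.7 at the 8-cell stage.

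Map1lc3a encodes an LC3 protein of the autophagosome membrane and Calcoco2 an autophagy receptor. Map1lc3a was at 17.9 to 69.0 copies at L2C (median 50.1) and at 70.8, 91.5, 166, 220 and 228 at 4-cell. The lowest 4-cell embryo lay just above the L2C range, and without embryos 4 and 5 the log2 fold change fell from 2.04 to 1.29 (unadjusted p = 0.0651). Calcoco2 went from 10.1 to 34.5 copies to 47.8, 44.8, 49.0, 81.0 and 68.8, and stood at 262 at the 8-cell stage. Ppt2, a lysosomal thioesterase, rose by 1.63 ± 0.48, and Cuta, which takes part in anchoring acetylcholinesterase, by 1.72 ± 0.40. Of these 12 genes, Isyna1, Map1lc3a, Cdc6, Eef1g, Ppt2, Calcoco2 and Srsf3 were not called without 4-cell embryos 4 and 5. Their direction in that fit was fixed by the choice of genes without overlap.

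Among the genes that fell, Spry4 encodes an inhibitor of the FGF and ERK pathway that the pathway itself induces. It was at 10.6 to 61.2 copies at L2C (median 20.0) and at 5.13, 10.0, 4.55, 1.26 and 3.25 at 4-cell. It fell by 2.19 ± 0.40 on the log2 scale (adjusted p = 0.00088), and its mean went from 75.0 copies at E2C to 0.576 at the 8-cell stage. Fmnl3, a formin that elongates actin filaments, went from 4.93 to 39.0 copies (median 11.1) to 2.70, 4.90, 3.03, 1.74 and 0. Akt1, the kinase that relays PI3K signals, stood at 7.59 to 22.7 copies at L2C (median 13.4) and at 3.63, 0, 3.15, 3.47 and 3.87 at 4-cell. The single 0 in Akt1 was 4-cell embryo 2, the shallowest of its stage.

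Dcp2, the decapping enzyme, was at 3.82 to 33.4 copies at L2C (median 9.23) and at 3.06, 0, 0, 0.662 and 3.07 at 4-cell. Dcp2 fell by 2.00 ± 0.40 (adjusted p = 0.00277) and by 2.24 without 4-cell embryos 4 and 5, and its highest value was that of L2C embryo 1. Paip2b, which holds the poly(A)-binding protein away from translation, went from 13.3 to 44.5 copies (median 22.8) to 9.79, 2.45, 8.09, 8.36 and 6.18. Both were higher at E2C than at L2C, Dcp2 at 26.1 and Paip2b at 49.3 copies, and lower at the 8-cell stage, at 0.657 and 4.56. Nup205, a scaffold nucleoporin of the nuclear pore, followed another course, from 0.654 copies at E2C to 7.91 to 16.3 at L2C and to 5.63, 2.45, 3.30, 2.42 and 0.595 at 4-cell. Without embryos 4 and 5 its change was -1.16 (unadjusted p = 0.115).

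Gm49575, Gm12114, Alox12 and Utp14b had a higher mean at L2C than at E2C, at 4-cell and at the 8-cell stage. The lincRNA Gm49575 was at 1.51 copies at E2C, 5.50 to 22.3 at L2C (median 7.76), 3.92, 0, 4.61, 0.662 and 1.22 at 4-cell, and 0 at the 8-cell stage. The lincRNA Gm12114 had a mean of 1.73 copies at E2C, 10.8 at L2C, 2.42 at 4-cell and 0 at the 8-cell stage. Alox12, a lipoxygenase that acts on arachidonic acid, was at 0.597 copies at E2C, 10.7 to 20.3 at L2C (median 13.9) 5.78, 0, 5.09, 3.70 and 3.75 at 4-cell, and 5.26 at the 8-cell stage. Utp14b, a retrogene of a ribosome biogenesis factor, had a mean of 1.36 copies at E2C, 16.0 at L2C and 2.43 at 4-cell, and its reads share a strand with Acsl3 at the same place, so the values may mix the genes. Fkbp5, a co-chaperone of HSP90 and target of the glucocorticoid receptor, fell by 1.82 ± 0.42 with all embryos and by 0.59 (unadjusted p = 0.233) without 4-cell embryos 4 and 5. Katnbl1, a katanin-like microtubule protein, fell by 1.49 ± 0.44. Of the 24 genes named in both directions, 13 were not called without 4-cell embryos 4 and 5. Besides Nup205 and Fkbp5, these included others of the genes that fell.

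To describe functional groups, 47 gene lists with 2189 tested genes were counted against the background of 2.41% higher and 4.28% lower genes and a median of -0.06. For the counts without 4-cell embryos 4 and 5, the background was 98 genes higher and 181 lower of 11507 tested, and a median of -0.09. No test was made on any list.

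**Figure D2:**
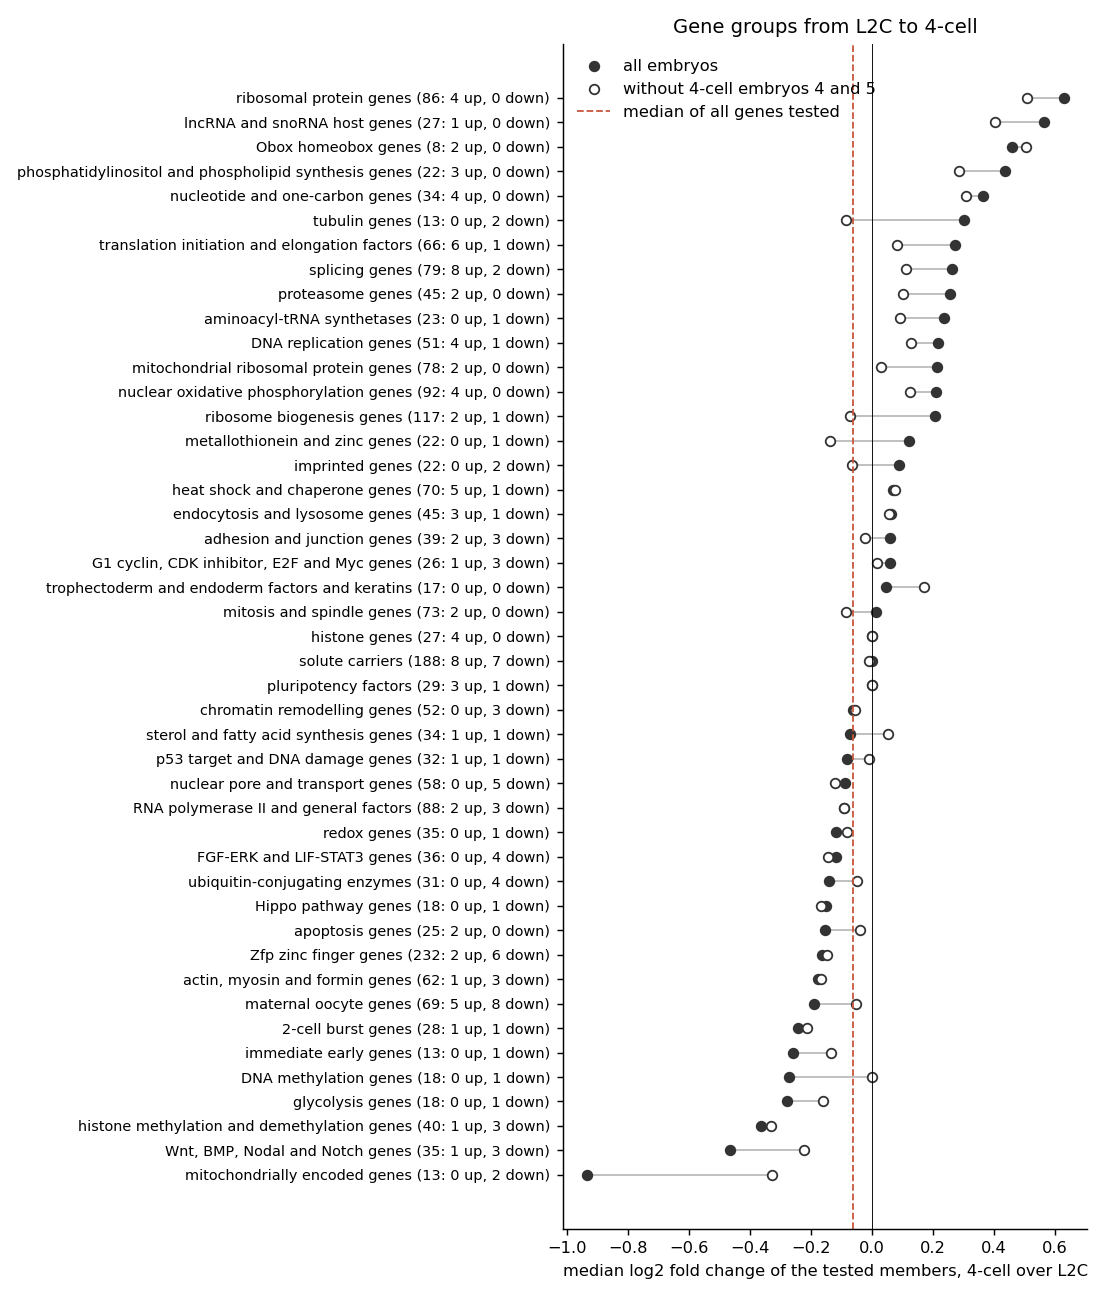
Median log2 fold change from L2C to 4-cell of each gene list with at least 8 tested members, with all embryos (filled) and without 4-cell embryos 4 and 5 (open), the dashed line marking the median of all genes (-0.06). Ribosomal protein genes lie at the top and the mitochondrially encoded genes at the bottom, where leaving out the pair of embryos moves the median from -0.94 to -0.33.

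Cytosolic ribosomal protein genes were the group with the most even rise in share. Their summed level was 4218 to 9912 copies at L2C (median 6271) and 8895, 8490, 10820, 12040 and 10030 at 4-cell, so that 3 of 5 4-cell embryos lay above every L2C embryo. At E2C the sum was 795 to 1168 copies and at the 8-cell stage 15959 to 19757. Of 86 genes, 82 had a positive log2 fold change, with a median of 0.63, and of 0.51 without 4-cell embryos 4 and 5. The change per gene was below 2-fold for most, and the test called 4 higher (Rps2, Rpl32, Rpl8 and Rpl3), none lower, and none with an adjusted p under 0.05. None was called without that pair. Rps2, a protein of the small subunit near the mRNA entry, was at 31.2 to 69.9 copies at L2C (median 56.3) and at 93.5, 87.3, 144, 144 and 79.7 at 4-cell, without overlap. Rpl3, a core protein of the large subunit, had a mean of 9.11 copies at L2C and 26.6 at 4-cell. The most abundant member, Rpl41, was at 440 to 1115 copies at L2C and at 630 to 1222 at 4-cell, with a log2 fold change of 0.30 (adjusted p = 0.818). Ribosomal protein genes have many processed pseudogenes, and long reads that fall on a copy can be assigned to it.

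Ribosomal protein mRNAs are known for a run of pyrimidines at their first bases, the TOP motif, through which their translation is controlled. The RefSeq start sites of these genes on GRCm38 were searched for a run of at least 6 letters C or T that begins with C within 10 bases of the start, on the strand of the gene. Such a run was in the windows of 32 of the 65 genes found in the table (49.2%), in 41.6% of their windows and in 17.8% of all windows. The windows below run from 50 bases before the start to 30 bases from it on, 5′ to 3′, with the run in capitals, for a gene that was called (Rps2) and 3 others of both subunits.
Rps2, chr17:24720013-24720092, plus strand: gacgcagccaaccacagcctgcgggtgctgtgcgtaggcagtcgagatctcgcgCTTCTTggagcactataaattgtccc
Rplp2, chr7:141447601-141447680, plus strand: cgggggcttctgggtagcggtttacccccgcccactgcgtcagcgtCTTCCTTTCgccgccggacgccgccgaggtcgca
Rps24, chr14:24490628-24490707, plus strand: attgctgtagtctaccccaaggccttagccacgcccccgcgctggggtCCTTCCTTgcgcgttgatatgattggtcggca
Rpl35, chr2:39005102-39005181, minus strand: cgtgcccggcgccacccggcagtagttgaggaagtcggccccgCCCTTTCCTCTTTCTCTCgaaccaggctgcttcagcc

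**Figure D3:**
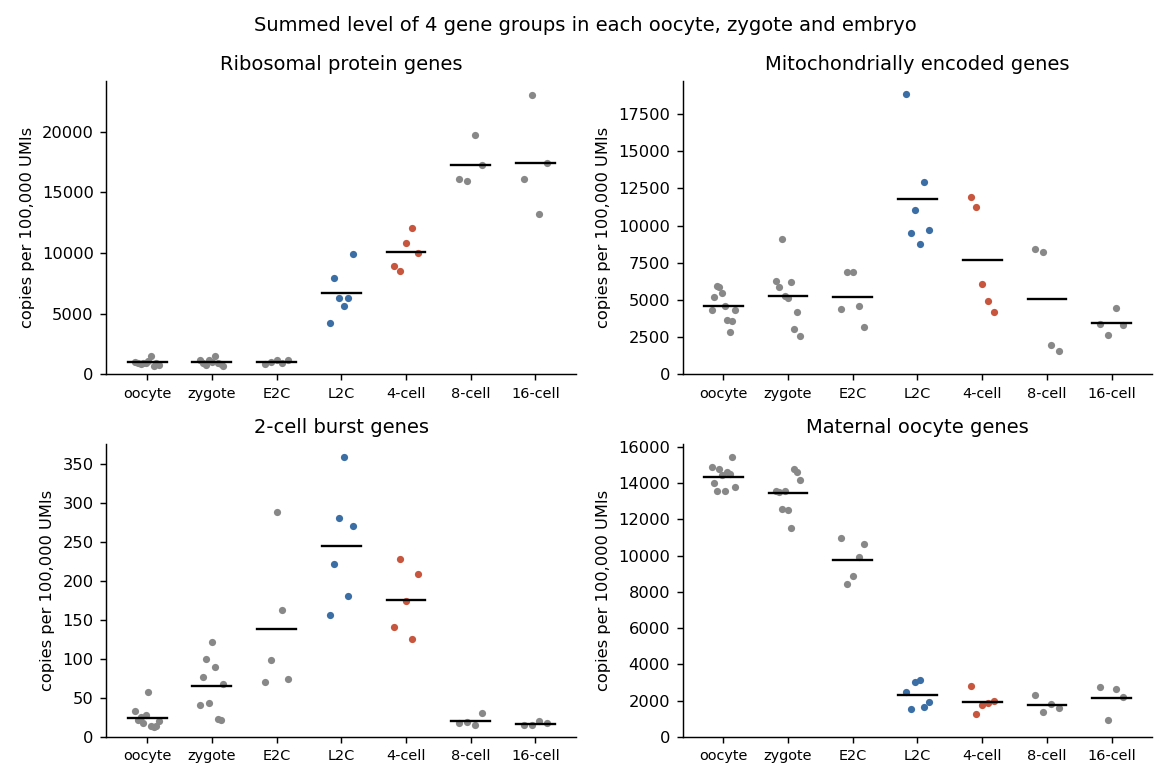
Summed copies per 100,000 UMIs of ribosomal protein, mitochondrially encoded, 2-cell burst and maternal oocyte genes in each oocyte, zygote and embryo from oocyte to 16-cell, with 1 point for each and a bar at the mean. Ribosomal protein genes climb from at most 1168 copies at E2C to at least 15959 at the 8-cell stage, and the mitochondrially encoded genes of 4-cell embryos 3 to 5 (6074, 4906 and 4191) lie below every L2C embryo.

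Other lists of the translation machinery had smaller medians than the ribosomal protein genes. The share called higher was nonetheless larger for translation factors (9.09%) than for ribosomal protein genes (4.65%). Of 66 translation factors, 6 were called higher and 1 lower, with a median of 0.27, and without embryos 4 and 5 it was 1 higher and none lower. Eif4a2, an RNA helicase of the cap complex, went from 3.49 to 13.6 copies (median 10.8) to 23.7, 12.5, 18.7, 26.2 and 21 (1.19 ± 0.31, adjusted p = 0.0199). Its paralog Eif4a1 was at 10.8 to 16.8 copies at L2C and at 15.3, 7.34, 28.8, 62.2 and 29.2 at 4-cell, and its change of 1.12 dropped to 0.32 without embryos 4 and 5. The 1 member that fell was Eif4enif1, which carries eIF4E into the nucleus and holds mRNA silent in the oocyte, from 9.08 to 23.3 copies to 10.0, 4.90, 3.09, 5.36 and 3.60 (-1.35 ± 0.35, adjusted p = 0.0199). Of 117 ribosome biogenesis genes, Nop53 and Ppan rose and Nol11 fell, and the list median of 0.21 became -0.07 without embryos 4 and 5, where none was called higher and 1 lower. Of 23 aminoacyl-tRNA synthetase genes, 1 was called, Lars, which was lower, and none without that pair.

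The 13 mitochondrially encoded mRNAs summed to 8738 to 18864 copies at L2C (median 10378) and to 11952, 11262, 6074, 4906 and 4191 at 4-cell. All 13 had a negative log2 fold change, the median being -0.94, and mt-Co2 and mt-Atp8 were called lower, neither with an adjusted p under 0.05. The fall was in 4-cell embryos 3 to 5, embryos 1 and 2 lay inside the L2C range, and without embryos 4 and 5 no member was called. The highest L2C sum was that of embryo 1, the single shallow cell. Of 92 nuclear genes of oxidative phosphorylation, 4 were called higher (Ndufa3, Ndufv3, Ndufv1 and Atp5d) and none lower, with a median of 0.21. Without embryos 4 and 5, 1 was called higher and the median was 0.12. Of 78 mitochondrial ribosomal protein genes, Mrpl23 and Mrpl11 rose, and without that pair none was called and the median was 0.03. Mrpl23 was at 0 to 1.78 copies at L2C and at 4.38, 12.5, 3.15, 4.65 and 7.49 at 4-cell (2.00 ± 0.54, adjusted p = 0.0229).

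Genes that supply nucleotides and one-carbon units rose in 4 of 34 cases and fell in none, with a median of 0.36. Phgdh, the first enzyme of serine synthesis, was at 0 to 35.5 copies at L2C (median 11.4) and at 41.4, 22.5, 72.1, 100.2 and 88.5 at 4-cell. Phgdh rose by 2.49 ± 0.53 (adjusted p = 0.0042) and only 4-cell embryo 2 lay within the L2C range. Mthfd1, an enzyme of the folate cycle, had means of 1.71 and 7.46 copies (1.79 ± 0.46, adjusted p = 0.0174). Rrm2, the small subunit of ribonucleotide reductase, and Impdh2, of guanine nucleotide synthesis, rose by 1.14 and 1.18, neither with an adjusted p under 0.05. None of the 4 was called without embryos 4 and 5, where the list median was 0.31.

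Of 22 genes of phospholipid synthesis, 3 were called higher, Isyna1, Chkb and Pemt, and none lower, with a median of 0.44. Their summed level was 111 to 256 copies at L2C and 275, 288, 327, 509 and 534 at 4-cell, and Isyna1, chosen for not overlapping, is part of that sum. Without embryos 4 and 5, 1 member was called. Chkb, a choline and ethanolamine kinase, had means of 1.34 and 4.13 copies, and Pemt, which makes phosphatidylcholine from phosphatidylethanolamine, 26.6 and 57.0. Of 34 genes of sterol and fatty acid synthesis, 1 was called higher, Fdps, and 1 lower. The counts were also 1 and 1 without embryos 4 and 5, where the median of -0.07 was 0.05. Of 18 glycolysis genes, Pdk1, a kinase that inhibits pyruvate dehydrogenase, was called lower, and 1 was called lower without that pair.

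Among transporters, 8 of 188 solute carriers were called higher and 7 lower, shares of 4.26% and 3.72% with a median of 0.00. The counts without embryos 4 and 5 were 3 and 2. Slc6a8, the creatine transporter, was at 0 to 1.17 copies at L2C and at 10.2, 9.79, 5.14, 6.16 and 2.61 at 4-cell, without overlap (1.91 ± 0.44, adjusted p = 0.0076), and reached 27.9 at the 8-cell stage. Slc46a1, the folate transporter, was at 0 to 3.08 copies at L2C (median 0) and had a mean of 3.28 copies at 4-cell (1.85 ± 0.42). Slc26a2, a sulfate transporter, fell from 1.61 to 11.1 copies to 0, 0, 0, 2.94 and 0.685.

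Of 79 splicing genes, 8 were called higher (10.1%) and 2 lower, with a median of 0.26. Without 4-cell embryos 4 and 5, 1 was called higher and 1 lower, and the median was 0.11. Hnrnph2 rose from 0 to 7.65 copies (median 3.16) to 13.7, 20.1, 11.3, 7.56 and 14.3, and Snrpd3, a core protein of the spliceosomal snRNPs, from a mean of 6.02 to 13.6. The fallers were Hnrnpul2 and Ptbp2. Of 58 nuclear pore and transport genes, 5 were called lower (8.62%) and none higher, with a median of -0.09, and without that pair 3 were called lower and none higher. Nup50 was at 15.7 to 33.4 copies at L2C (median 20.4) and at 7.46, 9.79, 6.45, 8.33 and 9.14 at 4-cell, and Ranbp2, the large nucleoporin of the cytoplasmic filaments, at 11.1 to 27.3 and at 7.04, 9.79, 8.5, 3.62 and 6.96. Neither gene overlapped between stages. The most abundant members, the GTPase Ran and the importin Kpna2, had log2 fold changes of 0.09 each. The median of the nuclear pore list turned to 0.21 with thinned cells, 0.03 with edgeR and 0.11 with DESeq2.

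The 2-cell burst genes as a list moved little over this step. They summed to 70.3 to 288 copies at E2C, to 156 to 359 at L2C (median 246) and to 141, 228, 174, 125 and 209 at 4-cell, overlapping ranges, against 15.1 to 31.2 at the 8-cell stage. Of 28 tested members, Gm21761 was called lower and Abcb5 higher, neither with an adjusted p under 0.05, and the median of -0.24 was 0.05 after thinning and 0.11 with a filter of 5 copies. In the fit without embryos 4 and 5, 1 was called higher and none lower. The Obox homeobox genes, factors of genome activation in a gene cluster with near-identical copies, were called higher in 2 of 8 cases, and in none without embryos 4 and 5. Their median of 0.46 turned to -0.10 without array weights. Obox1 was at 4.93 to 14.3 copies at L2C (median 9.22) and at 41.6, 4.90, 17.2, 24.6 and 27.9 at 4-cell (1.52 ± 0.43, adjusted p = 0.0299), after 297 at E2C. Obox6 was at 46.3 to 87.1 copies at L2C and at 61.6, 29.6, 50.5, 101.98 and 58.8 at 4-cell, with a change of 0.02. Of 5 Tdpoz genes Tdpoz4 was called higher, and none without that pair. Of 232 Zfp zinc finger genes, 2 were called higher and 6 lower (2 and 5 without that pair), and the summed level of 699 to 1033 copies at L2C and 651 to 799 at 4-cell did not separate the stages.

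Maternal oocyte genes fell in 8 of 69 cases and rose in 5. Omt2a, an oocyte transcript with a close copy Omt2b, was at 111 to 910 copies at L2C (median 269) and at 138, 34.3, 155, 71.5 and 86.5 at 4-cell (-1.59 ± 0.42, adjusted p = 0.0213). Oog1 went from 11.7 to 77.9 copies to 7.02, 14.9, 12.5, 8.99 and 1.84. Other oocyte transcripts were higher at 4-cell than at L2C. Bcl2l10, an oocyte survival gene of the BCL2 family, was at 720 copies at E2C, at 7.98 to 79.8 at L2C and at 201, 9.79, 46.4, 106 and 109 at 4-cell. H1foo, the oocyte linker histone, was at 4.23 to 50.6 copies at L2C and at 151, 20.1, 82.6, 99.8 and 104 at 4-cell, with a change of 2.29 ± 0.75 (adjusted p = 0.0766) and a mean of 109 at E2C. For Bcl2l10, H1foo, Obox1 and E330034G19Rik the highest value was that of 4-cell embryo 1 and the lowest 4-cell value that of embryo 2. The sum of the list, 1536 to 3158 copies at L2C and 2816, 1244, 1758, 1861 and 1972 at 4-cell, overlapped, and no member was called without embryos 4 and 5.

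Of 36 genes of FGF, ERK and LIF signalling, 4 were called lower and none higher, with a median of -0.12, and without 4-cell embryos 4 and 5 it was 2 lower and 1 higher. Of the 4, Spry4 (above), Dusp7, a phosphatase of ERK, and Jak2, the kinase of cytokine receptors, are described here. Dusp7 was at 7.28 to 66.8 copies at L2C (median 26.9) and at 7.65, 0, 13.5, 3.57 and 2.56 at 4-cell (-2.04 ± 0.41, adjusted p = 0.00277). Jak2 was at 8.05 to 61.2 copies at L2C (median 28.9) and at 14.6, 17.4, 16.6, 0.570 and 1.90 at 4-cell. The fall of Jak2 lay in embryos 4 and 5, and without them it was -0.41 (unadjusted p = 0.406). Spry4 and Dusp7, both feedback inhibitors of ERK, were called either way. Map2k2, the MEK2 kinase, went the other way with a change of 1.07, and was not called because its unadjusted limma p was not under 0.01.

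Of 35 Wnt, BMP, Nodal and Notch genes, Hes1 was called higher and Apc, Bmp15 and Smad7 lower, and none was called without embryos 4 and 5. Hes1, a target of Notch, was at 0 in 5 of 6 L2C embryos and at 0.858, 0, 0, 8.86 and 12.2 copies at 4-cell, so that its rise was that of embryos 4 and 5. Wwc2, an upstream protein of the Hippo pathway, was the only Hippo gene called of 18, and was lower, and none was called without that pair. Of 13 immediate early genes, Mafk was called lower, and 1 was called lower without that pair.

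Factors of the later pluripotent cells were mixed, with 3 of 29 higher and 1 lower, and 2 and 0 without embryos 4 and 5. Tdgf1 (Cripto), the Nodal co-receptor, was at 0 to 1 copies at L2C and at 8.16, 0, 13.8, 4.17 and 7.08 at 4-cell (2.29 ± 0.40, adjusted p = 0.000468), and reached 16.5 at the 8-cell stage. Klf2, a Krüppel-like factor, went from 0.828 to 5.56 copies to 14.7, 17.4, 26.2, 15.7 and 4.4 (1.79 ± 0.46, adjusted p = 0.0167). Both were called without 4-cell embryos 4 and 5, and the 4-cell values overlapped L2C in 1 embryo each. Klf17 was higher in embryos 4 and 5 alone, at 43.7 and 36.2 copies. Dppa5a, the most abundant member of the list, was at 70.2 to 367 copies at L2C and at 308, 310, 410, 290 and 384 at 4-cell (adjusted p = 0.297). None of 17 trophectoderm and endoderm genes was called.

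Replication genes rose in 4 of 51 cases and fell in 1, against 1 and 0 without embryos 4 and 5. Cdt1, which brings the MCM helicase to the origin together with Cdc6, was at 3.96 to 12.3 copies at L2C (median 10.1) and at 19.9, 35.0, 24.0, 28.1 and 15.4 at 4-cell (1.33 ± 0.39, adjusted p = 0.0369), without overlap. Mcm4 and Pole3 also rose, by 1.21 and 1.01, while Dbf4, which activates the CDC7 kinase, fell from a mean of 35.4 to 15.7 copies. Of 26 G1 cyclin, CDK inhibitor, E2F and Myc genes, Cdk4 was called higher, at 4.48 to 9.53 copies at L2C and 17, 14.9, 16.3, 12 and 28.4 at 4-cell. E2f1, E2f2 and E2f4 were called lower. Of 73 mitosis genes, Bub1b and Fbxo43 were called higher and none lower. No gene of the G1 or the mitosis list was called without embryos 4 and 5.

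In the p53 list of 32 genes, Mdm4, an inhibitor of p53, was called lower and Ddit4, an inhibitor of mTORC1 induced by stress, higher, and no member was called without 4-cell embryos 4 and 5. Mdm4 was at 35.2 to 188 copies at L2C (median 111) and at 45.1, 37.0, 35.0, 16.3 and 18.5 at 4-cell (-1.79 ± 0.35, adjusted p = 0.00217). 4-cell embryos 3 to 5 lay under every L2C embryo, and its mean went from 157 copies at E2C to 8.32 at the 8-cell stage. Ddit4 was at 2.00 to 5.56 copies at L2C and at 8.63, 10.0, 7.85, 15.1 and 15.6 at 4-cell. Without embryos 4 and 5 the change was -1.06 (unadjusted p = 0.0244) for Mdm4 and 1.10 (unadjusted p = 0.13) for Ddit4. Of 25 apoptosis genes, Bcl2l10 and Casp6 rose, and none was called without that pair.

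Of genes that guard proteins, 5 of 70 chaperone genes rose and 1 fell, and 2 of 45 proteasome genes rose. Without embryos 4 and 5 it was 1 chaperone gene higher and 1 lower, and 1 proteasome gene higher. Hsp90ab1, the constitutive HSP90, was at 26.6 to 98.6 copies at L2C (median 55.3) and at 105, 54.3, 133, 169 and 149 at 4-cell (1.21 ± 0.30, adjusted p = 0.0123). Cct5 and Cct7, of the chaperonin that folds actin and tubulin, rose by 1.32 and 1.03. Ubiquitin-conjugating enzymes fell in 4 of 31 cases (12.9%) and rose in none, with Ube2h at -1.86 ± 0.46 and Ube2g1 at -1.56 ± 0.39. The summed level of these enzymes was 718 to 781 copies at L2C and 606 to 676 at 4-cell, without overlap, and their median was -0.14, or 0.03 after thinning. Without that pair 2 of these enzymes were called lower. Of 35 redox genes Prdx2 was the 1 called, and 1 was called lower without that pair. Prdx2, a peroxiredoxin that removes hydrogen peroxide, was at 9.80 to 43.0 copies at L2C (median 21.9) and at 1.78, 17.4, 3.09, 1.80 and 0.622 at 4-cell (-2.85 ± 0.56, adjusted p = 0.00217). Prdx2 overlapped between stages through 4-cell embryo 2.

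Of 40 histone methylation genes 3 fell and 1 rose, with a median of -0.36 (0.00 with thinned cells), and of 52 remodelling genes 3 fell. Without embryos 4 and 5, 2 histone methylation genes were called in each direction and no remodelling gene. Kdm7a, a demethylase of H3K9 and H3K27, was at 4.93 to 23.3 copies at L2C and at 1.92, 2.45, 7.76, 1.91 and 1.81 at 4-cell. Setd1a, an H3K4 methyltransferase, fell from 3.37 to 16.7 copies to 0, 0, 0, 2.49 and 3.10, without overlap (-1.83 ± 0.48). Prmt1, the main arginine methyltransferase, rose from 2.48 to 22.4 copies (median 9.64) to 5.83, 25.0, 47.9, 37.3 and 58.2, a change of 2.05 that fell to 1.07 (unadjusted p = 0.102) without embryos 4 and 5. Of 27 histone genes, Hist1h2ap, Hist1h2ao, H2afx and H1foo rose and none fell, and without that pair 2 were called higher. The poly(A)-primed reads of Hist1h2ap and Hist1h2ao were few, at most 2.48 and 5.56 copies at L2C, and these genes have near-identical copies. Uhrf2, a reader of modified cytosine, was the only DNA methylation gene called, and was lower, and 1 was called lower without that pair.

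Of the cell surface and cytoskeleton, 2 of 39 adhesion genes rose (Cldn7 and F11r) and 3 fell (Ocln, Pkp4 and Cldn6), and without embryos 4 and 5 it was 2 and 2. Ocln, of the tight junction, was at 0.985 to 5.56 copies at L2C and at 0, 0, 0, 0.584 and 0 at 4-cell (-1.60 ± 0.41, adjusted p = 0.0165), and back at 3.36 at the 8-cell stage. Cldn7 had means of 2.39 and 8.99 copies and reached 20.6 at the 8-cell stage. Of 62 actin and myosin genes 3 fell, Fmnl3, Rock1 and Diaph1, and Tagln2 rose, and without that pair 1 was called in each direction. Of 45 endocytosis and lysosome genes, the proteases Ctsd and Ctsz and the factor Tfeb rose and Lrp1 fell, and none was called without 4-cell embryos 4 and 5. Ctsz was at 0 to 16.4 copies at L2C and at 16.4, 22.5, 37.2, 42.8 and 24.2 at 4-cell (1.85 ± 0.52, adjusted p = 0.032), and its change was 1.55 (unadjusted p = 0.0343) without that pair.

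More isoforms were called higher than lower with all embryos, and fewer without 4-cell embryo 4, embryo 5 or both. Of 29409 isoforms tested, 768 were called higher at 4-cell (2.61%) and 494 lower (1.68%). At an adjusted p under 0.05, 661 isoforms (2.25%) passed. Every 4-cell embryo lay above every L2C embryo for 47 isoforms (0.16%) and below for 38 (0.129%). Of the isoforms that rose, 179 belonged to genes called in the same direction and 589 to genes that were not called. Of those that fell, 98 belonged to genes called lower, 394 to uncalled genes and 2 to genes called higher. The classes that SQANTI3 gives were unequal among them. A full splice match (FSM) has all junctions of an annotated transcript, an incomplete splice match (ISM) only a run of them, and NIC and NNC are new combinations of known junctions and forms with a new junction.

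FSM made up 78.8% of the isoforms that rose, 34.0% of those that fell and 38.9% of those tested. ISM made up 4.95% of the isoforms that rose, 44.5% of those that fell and 42.3% of those tested. This depended on 4-cell embryos 4 and 5. Without them, 235 isoforms were called higher and 392 lower, and FSM made up 38.7% of the former and ISM 42.1%, near the shares of all isoforms. Leaving out embryo 4 alone gave 350 higher and 376 lower isoforms, and embryo 5 alone 374 and 412. Without embryo 4 alone FSM was 66.6% of the isoforms that rose, and without embryo 5 alone 69.8%. The share of UMIs in FSM isoforms was 73.6% to 80.5% at L2C and 76.4%, 76.8%, 81.2%, 83.5% and 82.4% at 4-cell. Single-exon isoforms took 14.2% to 28.9% of the UMIs at L2C and 16.4%, 19.2%, 9.06%, 7.54% and 6.85% at 4-cell. A read that ends early, or a cDNA primed within a transcript, is also counted as an ISM, and the part of this in the change was not tested.

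**Figure D4:**
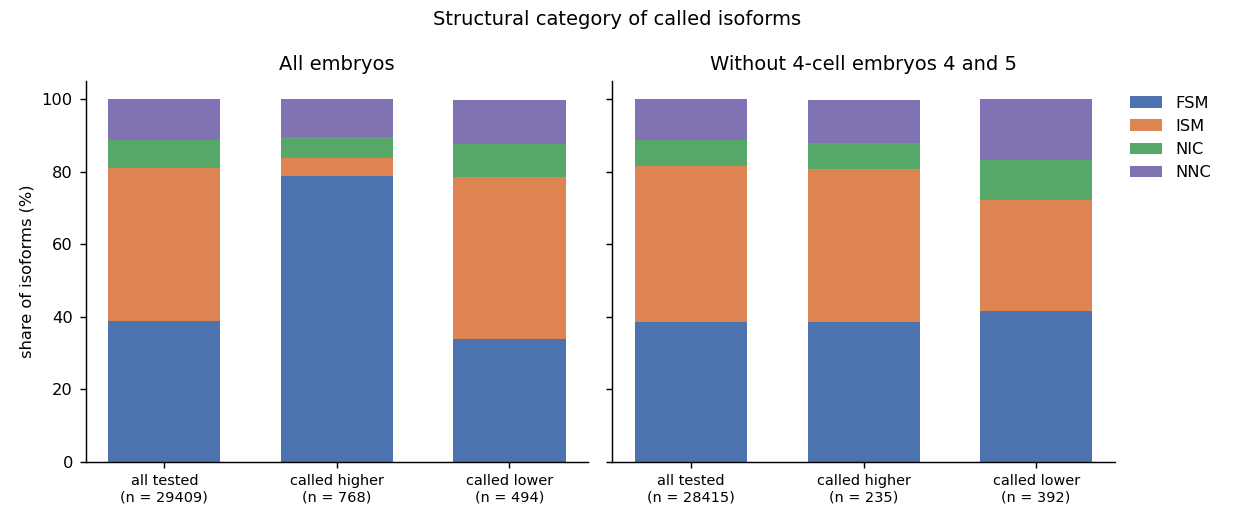
Share of FSM, ISM, NIC and NNC isoforms among the isoforms tested, called higher and called lower at 4-cell, with all embryos and without 4-cell embryos 4 and 5. FSM takes 78.8% of the isoforms that rose with all embryos and 38.7% without the pair.

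By the rule used for genes, 8 isoforms that rose and 5 that fell were named, out of 9 and 5 that met it. Isoform and gene copies are scaled to different totals, so that an isoform can exceed its gene and their copies cannot be set against each other. For Sox15 the 4-cell means were 14.8 copies for the isoform below and 12.7 for the gene. This isoform, PB.11947.1 (FSM, 2 exons, chr11:69654776-69656730, plus strand), rose along with its gene. It was at 0 to 3.86 copies at L2C and 14.7, 19.4, 8.93, 16.6 and 14.1 at 4-cell (2.45 ± 0.49, adjusted p = 0.0015). The main Fdps isoform PB.48013.2 rose by 2.32. The same held for PB.79476.1 of Slc25a5, the ADP/ATP carrier of the inner mitochondrial membrane, at 2.03, and for PB.63022.16 of 2310040G24Rik, an isoform with a new junction, at 2.02. In the other 4, the gene as a whole was not called. PB.45152.140 of Ctsa, a lysosomal carboxypeptidase, was at 0 to 11.7 copies at L2C and at 16.0, 51.7, 24.9, 36.9 and 21.3 at 4-cell, while the gene went from 26.0 to 51.4. PB.7868.3 of Map2k2 rose by 2.09 (gene 1.07), PB.67098.7 of Cyth2, an exchange factor for ARF GTPases, by 1.93 (gene 0.88), and PB.54910.1 of Srm, spermidine synthase, by 1.85 (gene 1.06).

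Of the isoforms that fell, PB.62414.8 of Smarcad1, a chromatin remodeller, has 3 exons and 797 bases (chr6:65042547-65044208, plus strand). It was at 10.8 to 16.2 copies at L2C (median 13.3) and at 5.67, 6.56, 5.81, 2.06 and 3.50 at 4-cell (-1.61 ± 0.42, adjusted p = 0.0193), and was at 0 at E2C. PB.2896.1 of Relch, a protein of endosome traffic, with 2 exons and 970 bases, fell from 7.92 to 40.7 copies to 5.34, 0, 7.29, 4.16 and 4.29. PB.76996.9 of Omt2a fell by 2.29 and PB.12021.7 of Alox12, an ISM of 3 exons, by 1.53, each along with its gene. A mitochondrial read class of 572 bases, PB.78709.151 of mt-Nd1, had a log2 fold change of -2.997 ± 0.813, from 9.68 to 52.2 copies to at most 6.56. The gene as a whole, scaled to the total of the gene values, had means of 1506 copies at L2C and 890 at 4-cell.

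Isoform switches, changes of the share that an isoform takes in its gene, were seldom called at this step. Only isoforms present in 3 embryos of each stage could be tested, so a form wholly gained or lost could not be called. Few calls under that filter and at this depth do not show that switches were rare. Of 5364 isoforms of 1644 genes tested, 8 isoforms (0.149%) of 8 genes (0.487%) were called, with limits on the adjusted p of 0.01 for the gene and 0.05 for the isoform. At an unadjusted p under 0.05 there were 398 isoforms. The residual variance of this fit came from the other stages too, so the p-values do not rest on the L2C and 4-cell shares alone. None of the 8 genes was called in expression. Fits that left out 1 embryo called 1 to 11 genes, and Hpf1 was the 1 gene called in all 11 of them. Some genes could not be tested in every fit. Rbm39 was tested in 4 and called in all 4. Scamp1, Thoc7 and Rheb were tested in 8 and called in 4, 3 and 3. Lin7c, Btg4 and Vmp1 were tested in all 11 and called in 2, 3 and 2.

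**Figure D5:**
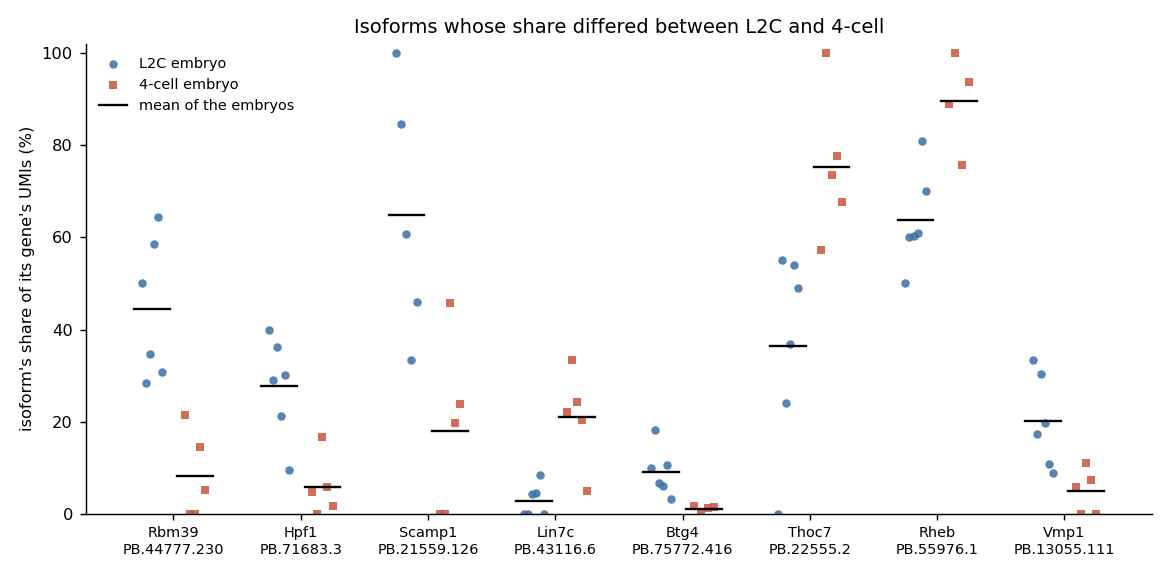
Share in percent of gene copies taken by each of the 8 switching isoforms in every L2C and 4-cell embryo with reads of the gene, with 1 point for each embryo and a bar at the mean. Shares fall in Rbm39, Hpf1, Scamp1, Btg4 and Vmp1 and rise in Lin7c, Thoc7 and Rheb.

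Hpf1 encodes the partner of PARP1 that directs ADP-ribose to serine. Its short isoform PB.71683.3 (3 exons, 628 bases, chr8:60890331-60907585, plus strand) took 9.56% to 40.0% of the gene at L2C (median 29.6%) and 4.76%, 0%, 16.6%, 5.80% and 1.71% at 4-cell (isoform adjusted p = 9.15e-05). The form with 8 exons, PB.71683.1, took 27.7% ± 10.2 of the gene at L2C (SD, n = 6) and 47.6% ± 10.1 at 4-cell (SD, n = 5). The gene itself was level, with a log2 fold change of 0.09 and 220 and 225 UMIs behind the shares.

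Rbm39, a splicing factor that also acts with nuclear receptors, lost a short form. PB.44777.230, an ISM of 4 exons and 929 bases (chr2:156177591-156180362, minus strand), took 28.3% to 64.4% of the gene at L2C (median 42.3%) and 21.5%, 0%, 0%, 14.4% and 5.11% at 4-cell, without overlap (adjusted p = 8.73e-05). Summed over the 5 isoforms that end before exon 5, the share was 61.1% ± 23.0 at L2C (49 of 85 UMIs) and 13.9% ± 9.61 at 4-cell (10 of 60 UMIs). The full form PB.44777.109 with 17 exons took 0% to 15.6% at L2C and 0%, 0%, 54.1%, 25.0% and 29.2% at 4-cell. The depth was 60 UMIs over 5 embryos, so the single shares rest on few reads.

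Btg4, an adaptor that brings the CCR4-NOT deadenylase to maternal mRNA, lost PB.75772.416, an ISM of 2 exons, from 3.25% to 18.2% of the gene to 1.65%, 0%, 1.21% and 1.4% in the 4 4-cell embryos with reads. Scamp1, a carrier membrane protein, went from 33.3% to 100% for PB.21559.126 to 0%, 0%, 45.7%, 19.8% and 23.8%, with 65 and 27 UMIs. Vmp1, which acts in autophagosome formation, had 8.91% to 33.3% of its copies in PB.13055.111 at L2C and 0% to 11% at 4-cell. Rheb, the GTPase that activates mTORC1, rose from 50% to 80.9% in PB.55976.1 to 88.9%, 100%, 75.8% and 93.8% in the 4 4-cell embryos with reads. In Lin7c, a scaffold of cell junctions, PB.43116.6 and PB.43116.14 have the same number of exons (5) and close ends, and the first rose from 0% to 8.43% to 22.0%, 33.3%, 24.3%, 20.4% and 4.83%.

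Thoc7, a subunit of the THO complex that couples transcription to mRNA export, gained share in 1 isoform. PB.22555.2 took 0% to 55.1% of the gene at L2C (median 42.9%) and 57.3%, 100%, 73.4%, 77.7% and 67.6% at 4-cell, without overlap (adjusted p = 0.01). Another isoform, PB.22555.19, begins 580 bases upstream and took 16.0% ± 8.23 at L2C and 7.23% ± 8.89 at 4-cell, a difference that was not called. All 8 isoforms that begin in the downstream RefSeq promoter window took 56.7% ± 28.6 of the gene at L2C (65 of 101 UMIs) and 84.8% ± 11.8 at 4-cell (101 of 121 UMIs), a difference that was not tested, with ranges of 0% to 77.0% and 73.0% to 100% that overlap. The windows around both starts, from 70 bases before the isoform start to 30 bases inside it, 5′ to 3′ with the bases inside the isoform in capitals, differ in composition, with 85% and 59% of G or C.
PB.22555.2, chr14:13961408-13961507, minus strand: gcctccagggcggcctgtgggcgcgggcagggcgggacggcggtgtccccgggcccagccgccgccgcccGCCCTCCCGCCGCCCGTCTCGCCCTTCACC
PB.22555.19, chr14:13961988-13962087, minus strand: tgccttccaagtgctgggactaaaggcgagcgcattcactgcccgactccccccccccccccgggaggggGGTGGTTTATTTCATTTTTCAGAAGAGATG

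Transcript features of the whole blastomere were compared over embryos by exact permutation tests with 462 arrangements, of which the smallest possible p is 0.0021645. Genes per cell were 4969 to 7848 at L2C and 5778, 3575, 4898, 6095 and 6116 at 4-cell, a difference of -1843 (exact permutation p = 0.0173, adjusted over 8 features 0.11). Isoforms per gene fell by 0.396 (p = 0.0325) and the difference in gene UMIs per cell was -22944.6 (p = 0.0455), each with an adjusted p of 0.11 in these exact permutation tests. With cells thinned to 10000 UMIs and the 4-cell cell under that depth left out, the difference in genes per cell was -231 (exact permutation p = 0.0368, adjusted over 7 features 0.209). Exons per UMI went from 4.63 ± 0.363 (SD, n = 6) to 5.39 ± 0.750 (SD, n = 5), with an exact permutation p of 0.0671. Transcript length was 1303 ± 60.2 bases per UMI at L2C and 1350 ± 81.3 at 4-cell (exact permutation p = 0.290). None of the 8 features passed after adjustment, and the 4-cell embryos differed more among themselves in exons per UMI (4.59, 4.62, 5.58, 6.08 and 6.10) than the stages did.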

How the data were processed

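Single cells of mouse oocytes and preimplantation embryos were sequenced as whole cDNA molecules with PacBio and pooled over runs. The authors called consensus reads with SMRT-Link 8.0.0.80529, extracted barcodes and UMIs with scISA-Tools, used minimap2 for alignment to mm10 and gffcompare for gene assignment, and built and classified isoforms with cDNA_Cupcake and SQANTI3. They deposited gene and isoform tables normalized to 100,000 UMIs per cell (CPM divided by 10). The 20171 genes and 68012 isoforms held 100% whole multiples of 1 UMI (tolerance 0.1), and the UMIs recovered served for depth, thinning and count models. Another table, of split and intact oocytes, was not used. Cells are listed by name, so shared barcodes were not counted.

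Embryos (first number in the cell name) were the replicates. Nothing states that they came from separate litters, so p-values measure spread between embryos. In the limma fits that spread is the residual within all 7 stages, oocytes and zygotes included. It is thus not only that of the L2C and 4-cell embryos, which alone enter the permutation tests. The mean over an embryo's cells was taken, and limma 3.58.1 (trend and array weights, R 4.3.3) was fitted to log2(value + 1), over 43 oocytes, zygotes and embryos of 7 stages, for features at 1 or more copies in at least 4 of them. Fold changes are on that scale and understate those of low genes. Calls needed p under 0.01 and a log2 change beyond 1, as in the study's methods, in either direction, and adjustment was by Benjamini-Hochberg across every feature tested. With only the 2 stages in the fit, 754 genes were called in place of 782, and 835 isoforms in place of 1262. Switches used limma on the arcsine square root of isoform shares, for isoforms present in 3 embryos of each stage compared, with Simes p-values per gene. The switch fit also took its residual from all 7 stages, and was not repeated with only the 2 stages. Single values per embryo were compared by two-sided exact permutation tests.

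Alternatives were other pseudocounts, filters, scalings and weights, thinning to 10000 UMIs (cells under that depth left out, 1 of them at 4-cell), cells under 20000 UMIs left out, each embryo left out, edgeR 4.0.16 and DESeq2 1.42.0 on the UMIs, and, chosen after seeing the data, the fits with and without 4-cell embryos 4 and 5. The model fits were also run on simulated counts with 1 fixed dispersion, in which embryos of a stage differed only by depth and random draw. The split among the 4-cell embryos was not simulated, so that run does not show how the fits perform on these data. Python 3.11.15 with numpy 2.4.6, pandas 2.3.3 and scipy 1.17.1 was used, and matplotlib 3.10.9 for drawing. Positions are from GENCODE and promoter windows from RefSeq, both on GRCm38 (mm10).

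The members, gene lists and rules were chosen with earlier results of these data known. Named genes were the 12 largest changes in each direction, and 8 for isoforms, among calls with adjusted p under 0.05, at least 10 copies in the higher stage and no overlap between stages, then up to 6 called members of each list with the smallest p, members with the highest level as uncalled examples, and all genes with a called switch. Counting by overlap with gene models splits reads of overlapping genes and near-identical copies. Results that need certain withheld genes are not reported here.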

Additional observations from a re-analysis of the deposited data

Results flagged for a closer look

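An embryo far from the others of its stage was looked for in 106 groups of 5 or 6 embryos by Dixon's ratio, the gap to the nearest embryo divided by the range. Chance flags about 5 in 100 groups, and 7 were flagged. L2C embryo 1, which is 1 cell, stood apart in 6 of them. Its 17971 gene UMIs per cell gave a ratio of 0.754, its 4969 genes per cell 0.801, its 1.67 isoforms per gene 0.72 and its 28.9% of UMIs in single-exon isoforms 0.675. It was also the highest L2C embryo for Dcp2 (33.4 copies, ratio 0.689) and for Fkbp5 (27.8 copies, ratio 0.745). At 4-cell, embryo 2, with 2 cells, was at 0 copies of Akt1, a ratio of 0.815. Both embryos had few UMIs, and the part of depth in these values was not tested.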

How the results depend on the processing

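The cause of the changes listed here was not tested. The 782 called genes became 138 (82 higher, 56 lower) with a pseudocount of 5, 1183 without array weights, 352 (245 higher, 107 lower) with thinned cells, 466 with DESeq2, 359 at an adjusted p under 0.05 and 279 without 4-cell embryos 4 and 5. Leaving out 1 embryo gave 430 (4-cell embryo 4) to 902 genes, and 477 without 4-cell embryo 5. The higher share of 36.1% was 59.4% with the pseudocount of 5, 69.6% with thinned cells and 48.9% with DESeq2. The 1262 called isoforms became 219 with a pseudocount of 5, 592 with a filter of 5 copies, 835 with only the 2 stages in the fit, 772 with thinned cells, 627 without and 2013 with only 4-cell embryos 4 and 5, 256 with edgeR, 217 with DESeq2 and 661 at an adjusted p under 0.05. Leaving out 1 embryo gave 726 to 1616 isoforms (726 and 786 without 4-cell embryos 4 and 5 in turn). The 8 switching genes became 3 with logit shares, 1 when present in 4 embryos of each stage, 5 without 4-cell embryos 4 and 5, and 1 to 11 when 1 embryo was left out.

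The differences in UMIs per cell, genes per cell and isoforms per gene passed after adjustment without shallow cells (-27906, -2007 and -0.457) and without L2C embryo 1 (-29642, -2277 and -0.506). The first of these settings selects cells by their UMIs, a quantity under test. Both settings leave out L2C embryo 1, whose single cell had 17971 UMIs. Leaving out 1 embryo gave ranges of -29642 to -18993, -2277 to -1414 and -0.506 to -0.331. Transcript length went from 47.3 to -8.32 bases without 4-cell embryos 4 and 5. Of the 24 named genes, 13 were not called without that pair, 18 with thinned cells and 3 with a pseudocount of 5, and of the 13 named isoforms 5, 8 and 1. No named gene or isoform turned its direction in the fits that gave it a value (DESeq2 for 21 genes and 12 isoforms, edgeR for 23 genes). They were chosen for no overlap between stages, which fixes the direction in every fit that only leaves out or reweights embryos. The kept direction is therefore no evidence of stability in those fits. List medians of ribosome biogenesis, tubulin, zinc, imprinted, adhesion, mitosis and sterol genes changed sign without 4-cell embryos 4 and 5. No paired analysis was possible because the embryos of the stages are different embryos. Depth limits 4-cell values, where 1 UMI in the median cell is worth several copies.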
